A study of Mus musculus with 12 samples.

Results

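The 10 genes described here encode the proteins that join heart muscle cells end to end at the intercalated disc. They are Dsp, Jup, Pkp2, Dsg2 and Dsc2 of the desmosome, Cdh2, Ctnna3 and Ctnna1 of the adherens junction, Gja1 of the gap junction, and Tjp1, a scaffold gene of cell junctions. They were taken as the rows carrying these 10 symbols among the 21493 genes listed for every library. Each symbol had 1 row, and all 10 were among the 13158 genes that passed the filter on low counts.

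Poly-A RNA was sequenced from cardiomyocytes of mice aged 3 months, in 4 groups of 3 libraries. Des+/+ mice had an intact desmin gene, Des-/- mice were null for it, and mice of each genotype had either swum (swim) or not (non-swim). Hearts of all 4 groups were digested by enzyme perfusion, and the methods give 3 to 4 mice per library, used irrespective of sex, so that each replicate was a pool of cells from several animals. The p-values below therefore measure the spread between pools. The methods also describe Des+/+ and Des-/- lines carrying a green fluorescent protein under the cardiomyocyte promoter of Myh6, and do not say whether these libraries came from them. Reads assigned to genes ran from 4320819 to 12072443 per library. Des, the targeted gene, had 2367 ± 1137 (SD, n = 3) CPM in Des+/+ non-swim and 59.5 ± 11.3 CPM in Des-/- non-swim libraries, and 1273 ± 336 CPM against 96.5 ± 4.71 CPM after swimming. CPM, the usual unit of counts per library total, is the count of a gene relative to that total after scaling between libraries.

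The intercalated disc is the specialised border across which cardiomyocytes pass force and current to each other. In the desmosome, the cadherins desmoglein-2 and desmocollin-2 span the gap between cells, plakoglobin and plakophilin-2 bind their tails, and desmoplakin ties them to the desmin filaments inside the cell. In the adherens junction, N-cadherin is linked through catenins to the actin of the sarcomeres, and gap junctions of connexin 43 carry the electrical impulse. Mutations of several of these genes cause arrhythmogenic cardiomyopathy in people.

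Before any comparison, the share of reads from cardiomyocyte marker genes differed between the libraries. The 12 cardiomyocyte marker genes (sarcomere and related genes such as Myh6, none of them a member of the set) took 6.91 to 9.21% of the gene reads in Des+/+ non-swim libraries, 3.55 to 5.60% in Des+/+ swim, 0.758 to 3.69% in Des-/- non-swim and 1.93 to 3.24% in Des-/- swim libraries. Replicate 3 of Des-/- non-swim stood lowest, at 0.758%, and replicate 2 of the same group stood at 3.69%. In RNA from bulk samples, fewer cardiomyocytes and less of these transcripts per cardiomyocyte cannot be told apart. The marker values are therefore given beside the results, and each lead count is also given without replicate 3 of Des-/- non-swim.

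Without swimming, 8 of the 10 intercalated disc genes were lower in Des-/- than in Des+/+ cardiomyocytes, and none was higher. The 8 were the desmosome genes Dsp, Pkp2, Dsg2 and Dsc2, the adherens junction genes Cdh2, Ctnna3 and Ctnna1, and the connexin gene Gja1, with levels at 16.0 to 63.7% of those in Des+/+. A gene was called where its adjusted p was under 0.05 in edgeR's quasi-likelihood test over all 13158 genes, and 18.0% of those genes were called lower in the same comparison. The median change of the 10 was -1.80 on the log2 scale, beside 0.04 for all genes tested. All 12 cardiomyocyte marker genes were also called lower, with a median of -2.02, and when the libraries were scaled to those markers in place of all genes, none of the 10 was lower and 4 (Jup, Ctnna1, Gja1 and Tjp1) were called higher. That scaling moved the median of all genes to 2.69 and called 92.5% of them higher.

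**Figure D1:**
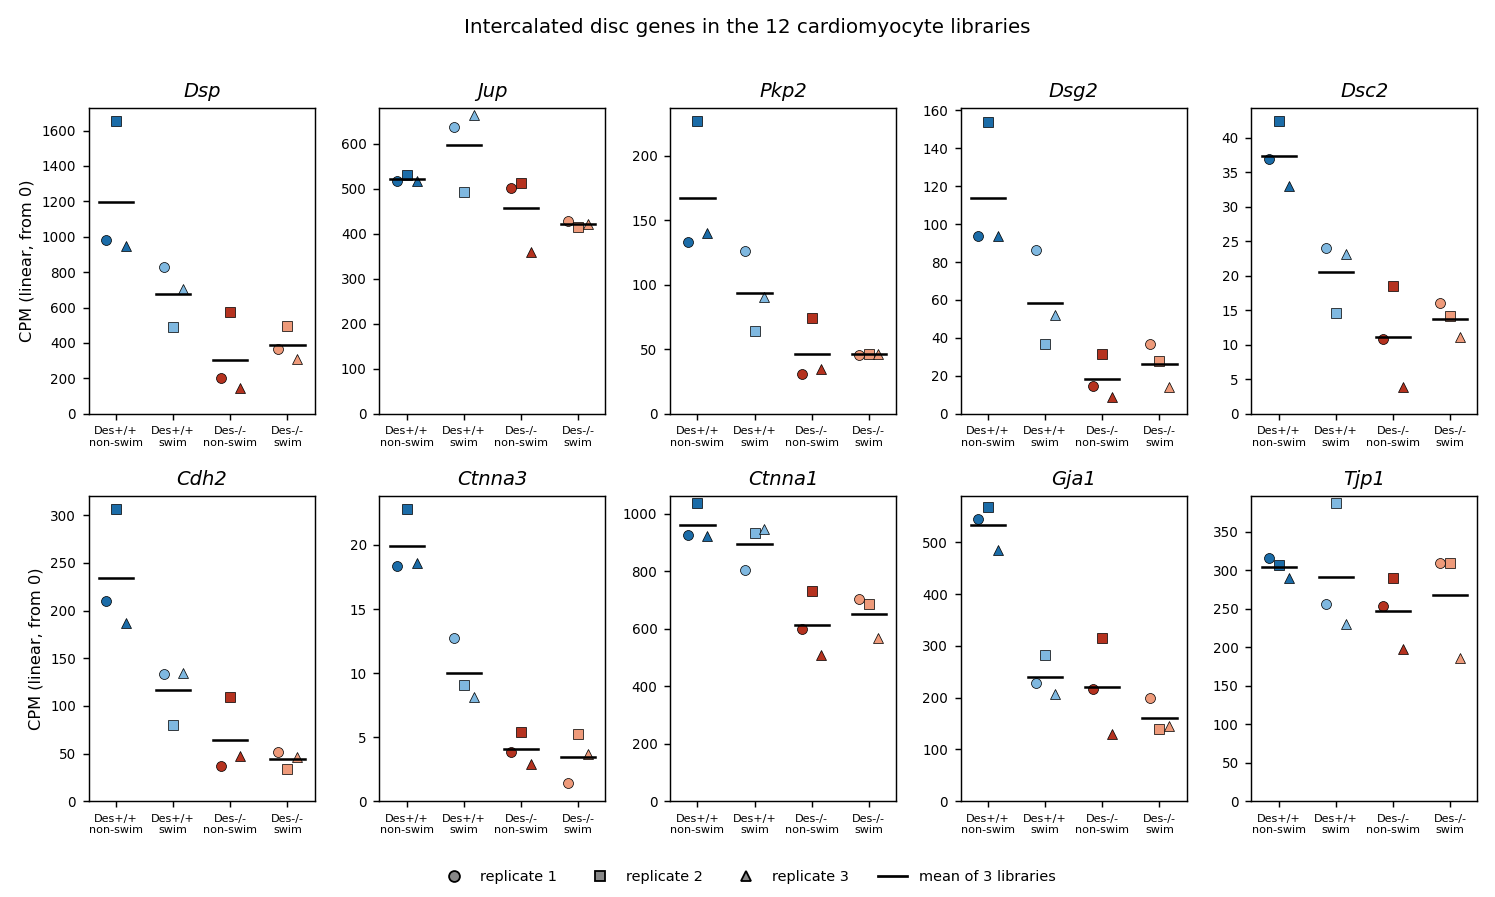
CPM of each intercalated disc gene (vertical axis, linear and starting at 0) in the 12 libraries, by group. Symbols stand for the replicate numbers and bars for group means. In Des-/- non-swim, replicate 2 was the highest library for 10 of 10 genes and replicate 3 the lowest for 8 of 10.

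Dsp encodes desmoplakin, which anchors desmin at the desmosome (chr13:38151294-38198577, plus strand, build GRCm38). Its level was 981, 1653 and 950 CPM in replicates 1 to 3 of Des+/+ non-swim and 199, 572 and 145 CPM in those of Des-/- non-swim. The groups did not overlap, although replicate 2 stood above the others in both. The fitted change was -1.97 ± 0.47 (SE) on the log2 scale (95% CI -2.99 to -0.95, adjusted p = 0.00895), or 3.91-fold lower.

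Pkp2, which encodes the desmosomal plakophilin-2 (chr16:16213318-16272712, plus strand), had 133, 227 and 140 CPM in Des+/+ non-swim and 31.0, 74.1 and 34.4 CPM in Des-/- non-swim replicates. The highest Des-/- library was below the lowest Des+/+ library, and the change was -1.84 ± 0.35 (adjusted p = 0.00302). Of the desmosomal cadherins, Dsg2 (chr18:20558074-20604521, plus strand) had 93.7, 154 and 93.9 CPM against 14.5, 31.7 and 8.75 CPM. This was the largest change among the 10 genes, at -2.64 ± 0.50 (95% CI -3.73 to -1.56, adjusted p = 0.00288), or 6.25-fold lower. Dsc2 (chr18:20030633-20059554, minus strand) was expressed at lower levels, with 36.9, 42.4 and 33.0 CPM against 10.8, 18.5 and 3.94 CPM. It changed by -1.77 ± 0.42 (adjusted p = 0.00881).

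Jup was the desmosome gene that did not pass the test. It encodes plakoglobin, an armadillo protein shared by desmosomes and adherens junctions (chr11:100368958-100397763, minus strand). Its levels were 517, 532 and 517 CPM in Des+/+ and 501, 513 and 359 CPM in Des-/- non-swim libraries. The change was -0.19 ± 0.17 (95% CI -0.56 to 0.18, adjusted p = 0.423), an interval that holds no change as well as a decrease but does not reach the change fitted for Dsp. Its sign turned, to 0.08 with library totals as the only scaling and to 0.03 without replicate 3 of both Des-/- groups.

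Of the adherens junction genes, Cdh2 encodes N-cadherin, the classical cadherin of the disc (chr18:16588877-16809246, minus strand). It had 210, 307 and 187 CPM in Des+/+ and 37.0, 110 and 47.4 CPM in Des-/- non-swim libraries, a change of -1.86 ± 0.38 (adjusted p = 0.00439). Its 2 catenin partners in the set moved by different amounts. Ctnna3, which encodes the αT-catenin found in few tissues besides heart (chr10:63430098-65003667, plus strand), had 18.4, 22.8 and 18.6 CPM against 3.83, 5.44 and 2.89 CPM, a change of -2.30 ± 0.39 (adjusted p = 0.00178). Ctnna1, the widely expressed αE-catenin (chr18:35118859-35254779, plus strand), had 926, 1038 and 923 CPM against 599, 733 and 507 CPM. Its change of -0.65 ± 0.18 (95% CI -1.04 to -0.26, adjusted p = 0.0167) was the smallest of those called.

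The call of Ctnna1 did not hold without replicate 3 of Des-/- non-swim (-0.53, adjusted p = 0.0587) or without replicate 2 of Des+/+ non-swim (-0.59, adjusted p = 0.0558), so that 7 of 10 genes were called lower without either library. It was also lost with library totals as the only scaling (-0.38, adjusted p = 0.122) and in a fit of only the 6 libraries compared (-0.63, adjusted p = 0.0670). The other 7 genes were called lower with each of the 12 libraries left out in turn. Of the 6425 exon bases of Ctnna1, 95 overlap Lrrtm2 on the opposite strand. Lrrtm3 lies on the opposite strand inside Ctnna3 with 0 shared exon bases.

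Gja1 encodes connexin 43, the main gap junction protein of the ventricle (chr10:56377330-56402513, plus strand). It had 545, 569 and 486 CPM in Des+/+ and 217, 314 and 130 CPM in Des-/- non-swim libraries. The groups did not overlap, and the change was -1.27 ± 0.28 (95% CI -1.88 to -0.67, adjusted p = 0.00581). Tjp1 encodes ZO-1, which binds the tail of connexin 43 at the edge of the gap junction (chr7:65296165-65527781, minus strand). It had 315, 307 and 289 CPM against 254, 289 and 197 CPM, a change of -0.30 ± 0.24 (95% CI -0.83 to 0.23, adjusted p = 0.368). All 10 genes, Jup and Tjp1 included, had lower values in each Des-/- than in each Des+/+ non-swim library, as did 24.9% of all genes tested. For Tjp1 this was a near tie, with 289.443 CPM in the highest Des-/- and 289.447 CPM in the lowest Des+/+ library. For Jup these values were 513 and 517 CPM.

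**Figure D2:**
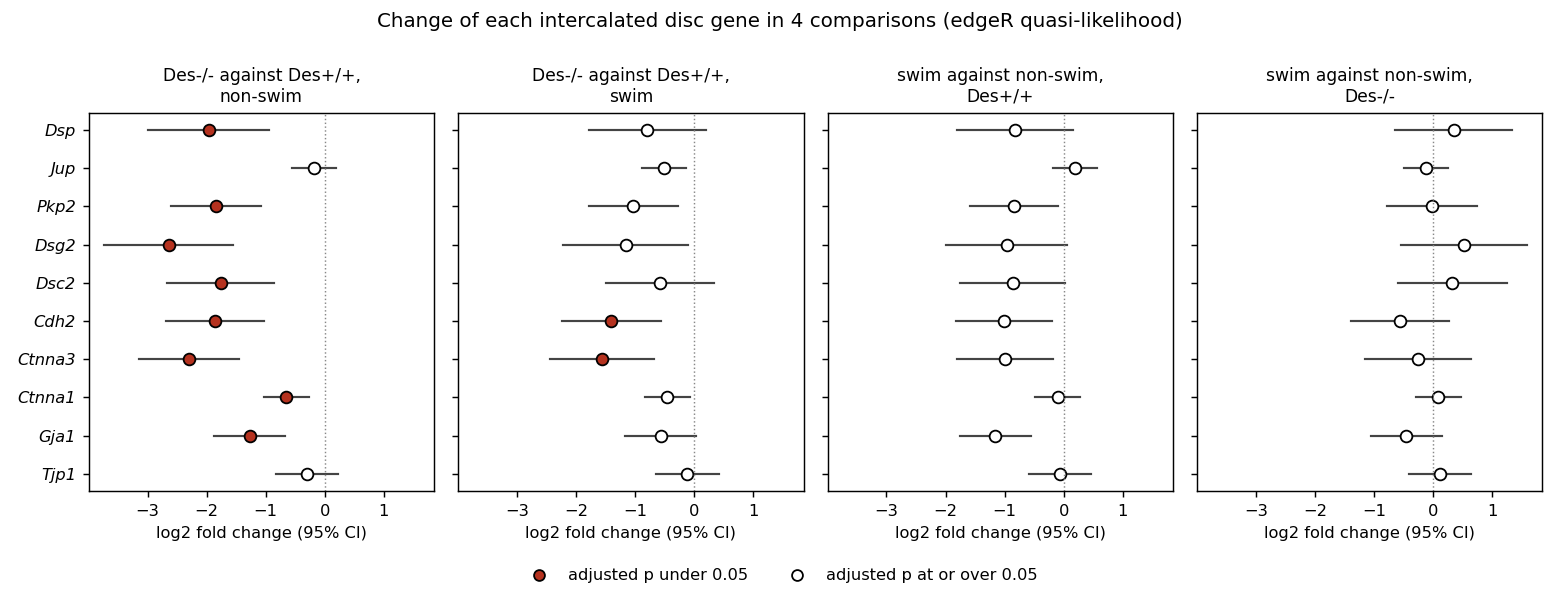
Log2 fold change of each gene (horizontal axis, point) with its 95% confidence interval (line) in 4 comparisons. Filled points passed the adjusted p threshold. The 8 filled points without swimming stand at -0.65 or lower, 2 are filled after swimming, and none is filled for swimming in either genotype.

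Beside these changes, 9 of 10 fibroblast markers, 8 of 10 macrophage markers and 10 of 12 genes listed for the response to cell isolation were called higher in Des-/- non-swim libraries, beside 14.0% of all genes. The last list holds genes such as Fos and Jun, and whether isolation raised them was not tested. Of the endothelial markers 0 of 10 were called, of the mesothelial and epithelial markers 0 of 7, of the mural markers 1 of 8 was lower, and of the atrial markers 1 of 5 was lower. The summed level of the 12 cardiomyocyte markers was 72819 to 109515 CPM in Des+/+ non-swim and 7433 to 33720 CPM in Des-/- non-swim libraries, and that of the fibroblast markers 6260 to 7578 and 12851 to 43324 CPM. The only defining markers at 0 in a whole group were the atrial genes Bmp10 and Sln. With the difference between the fibroblast and cardiomyocyte marker levels as a covariate, 0 of the 10 genes were called for genotype without swimming, as were 13 of all 13158 genes.

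The upstream sequences are shown for 2 genes that fell without swimming, Dsp and Gja1, and for the 2 that did not pass the test, Jup and Tjp1, as the bases next to which each transcript starts. Each run holds the 250 bases before the RefSeq start site in build GRCm38.p6, written 5′ to 3′ on the strand of the gene. They lie at chr13:38151044-38151293 (plus) for Dsp, chr10:56377050-56377299 (plus) for Gja1, chr11:100397791-100398040 (minus) for Jup and chr7:65371245-65371494 (minus) for Tjp1. None of the 4 windows holds an exon of its own gene in the GENCODE annotation, that of Tjp1 lies inside the longer gene model, and that of Dsp overlaps an exon of Gm10129 on the opposite strand. Capitals mark matches, on either strand, to the motifs searched: the TATA box as TATAAA, the CCAAT box as CCAAT, the GC box as GGGCGG, the E-box as CANNTG, the TEAD motif as CATTCC and the GATA motif as AGATAA, besides the MEF2 motif and the SRF CArG motif.
Dsp: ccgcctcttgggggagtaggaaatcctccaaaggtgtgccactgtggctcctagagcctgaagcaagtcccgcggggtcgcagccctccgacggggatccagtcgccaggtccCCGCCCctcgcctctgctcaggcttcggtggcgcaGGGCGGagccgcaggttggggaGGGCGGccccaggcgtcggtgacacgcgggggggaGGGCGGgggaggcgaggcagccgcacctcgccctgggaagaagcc
Gja1: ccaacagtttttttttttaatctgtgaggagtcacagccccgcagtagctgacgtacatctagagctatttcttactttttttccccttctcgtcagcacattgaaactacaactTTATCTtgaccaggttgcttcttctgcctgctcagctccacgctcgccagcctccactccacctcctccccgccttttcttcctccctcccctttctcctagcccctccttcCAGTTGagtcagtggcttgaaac
Jup: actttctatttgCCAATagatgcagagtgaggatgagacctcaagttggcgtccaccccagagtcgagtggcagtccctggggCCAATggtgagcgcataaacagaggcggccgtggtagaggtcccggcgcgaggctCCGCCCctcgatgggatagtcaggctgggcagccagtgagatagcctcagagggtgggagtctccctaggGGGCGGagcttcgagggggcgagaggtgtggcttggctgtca
Tjp1: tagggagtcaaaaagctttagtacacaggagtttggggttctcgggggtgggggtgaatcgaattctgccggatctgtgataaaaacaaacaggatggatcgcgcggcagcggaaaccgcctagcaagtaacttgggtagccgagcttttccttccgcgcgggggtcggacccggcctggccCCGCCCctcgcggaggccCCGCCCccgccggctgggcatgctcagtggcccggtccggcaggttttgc

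The Dsp window held 4 matches to GGGCGG, and the windows of Jup and Tjp1 held 2 each, whereas Gja1 held 0. A GGGCGG match was present in 32.7% of the 32851 promoters of the table. Jup also held 2 CCAAT matches (33.8% of promoters), and Gja1 held 1 CANNTG match (66.2%) and 1 AGATAA match (9.99%). None of the 4 held TATAAA (12.4%), CATTCC (12.6%), the MEF2 motif (2.92%) or the SRF CArG motif (1.47%). The Dsp and Tjp1 windows were 72.4 and 63.2% G or C, Jup 62.0% and Gja1 50.0%, beside a median of 52.4% over the table. These matches are letters found in the windows, and binding was not analysed here. Entries were found for Dsp, Jup, Gja1, Tjp1 and Ctnna3, the last with several start sites and not shown. Pkp2 had no entry.

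The level per length, as CPM divided by the annotated exon length in kilobases (RPKM), gives the order of the genes in Des+/+ non-swim cardiomyocytes. Ctnna1 stood first at 150 ± 10.2 (SD, n = 3) RPKM and Dsp next at 124 ± 41.1 RPKM, and their ranges overlapped. Jup at 81.1 ± 1.29, Gja1 at 52.0 ± 4.17 and Tjp1 at 38.9 ± 1.70 RPKM followed without overlap. The ranges of Tjp1, Pkp2 (31.1 ± 9.78 RPKM) and Cdh2 (29.1 ± 7.91 RPKM) overlapped, and the lowest levels were those of Dsg2 (13.8 ± 4.21), Dsc2 (7.10 ± 0.895) and Ctnna3 (2.76 ± 0.344 RPKM). In Des-/- non-swim libraries Ctnna1 remained first at 95.5 ± 17.7 RPKM and Jup had the next level, 71.1 ± 13.3 RPKM, with overlapping ranges, while Dsp stood at 31.6 ± 24.1 RPKM, equal to Tjp1 at 31.6 ± 5.94 RPKM.

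After swimming, 2 of the 10 genes were called lower in Des-/- than in Des+/+ cardiomyocytes, both of the adherens junction, and 5.57% of all genes were called lower. Cdh2 had 133, 80.5 and 135 CPM in Des+/+ swim and 51.6, 34.1 and 45.9 CPM in Des-/- swim libraries, a change of -1.40 ± 0.38 (adjusted p = 0.0399). Ctnna3 had 12.8, 9.10 and 8.11 CPM against 1.42, 5.25 and 3.69 CPM, from 10 to 24 reads per Des-/- library, a change of -1.56 ± 0.40 (adjusted p = 0.0337). The groups did not overlap for either gene. The median change of the 10 was -0.68 and that of all genes 0.02, with all 10 negative and 7 without overlap between the groups, beside 18.6% of all genes that were lower without overlap.

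The other 8 genes were not called after swimming. Pkp2 had 126, 63.8 and 90.8 CPM in Des+/+ swim and 45.2, 46.4 and 46.0 CPM in Des-/- swim libraries (-1.03 ± 0.35, adjusted p = 0.0760). Jup had 637, 493 and 665 CPM against 428, 414 and 422 CPM (-0.51 ± 0.17, adjusted p = 0.0767). In these 2 genes the Des-/- swim libraries were close together and lay below all 3 Des+/+ swim libraries. Dsg2 changed by -1.16 ± 0.48 (adjusted p = 0.131), Dsp by -0.79 ± 0.45 (0.255), Dsc2 by -0.57 ± 0.42 (0.373), Gja1 by -0.57 ± 0.27 (0.183), Ctnna1 by -0.46 ± 0.18 (0.109) and Tjp1 by -0.12 ± 0.24 (0.771).

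These 2 calls lay close to the threshold. That of Cdh2 was lost without replicate 1 or 3 of Des+/+ non-swim, 1 or 3 of Des+/+ swim, or any of the 3 Des-/- swim libraries (adjusted p = 0.0539 to 0.125), and with the replicate block (0.0513). That of Ctnna3 was lost without replicate 3 of Des+/+ non-swim, any of the 3 Des+/+ swim libraries, or replicate 1 or 3 of Des-/- swim (adjusted p = 0.0549 to 0.0952), and in a fit of only the 6 libraries compared (0.0689). That fit called Pkp2 (adjusted p = 0.0400) and Cdh2. The count was 0 without replicate 3 of Des+/+ non-swim, 1 or 3 of Des+/+ swim, or 1 or 3 of Des-/- swim, 1 without replicate 1 of Des+/+ non-swim, 2 of Des+/+ swim or 2 of Des-/- swim, and 3 without replicate 2 (with Pkp2) or replicate 3 (with Jup) of Des-/- non-swim. DESeq2 called 5 genes lower in this comparison (Jup, Pkp2, Cdh2, Ctnna3 and Ctnna1), and 8.54% of the genes it tested. Of the cardiomyocyte markers, 1 of 12 was called lower after swimming, with a median of -0.64, and 8 of 12 genes listed for the response to cell isolation were called higher, beside 5.01% of all genes.

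Swimming in Des+/+ mice left none of the 10 genes called by edgeR, where 0.0912% of all genes were called, and 4 had an unadjusted p under 0.05 (Pkp2, Cdh2, Ctnna3 and Gja1), as did 20.5% of all genes. Even so, 7 of the 10 were lower in each swim than in each non-swim library, beside 18.7% of all genes tested. The gene with the largest fitted change was Gja1, whose 229, 283 and 207 CPM in Des+/+ swim libraries lay below the 545, 569 and 486 CPM of the non-swim libraries. The change was -1.15 ± 0.28 (95% CI -1.76 to -0.55), with an adjusted p of 0.0848. DESeq2 gave Gja1 an adjusted p of 0.00471, a fit of the 6 Des+/+ libraries alone 0.0259, and edgeR without replicate 3 of Des-/- non-swim 0.0335, each a call of this gene alone among the 10. DESeq2 called 7.09% of the genes it tested in this comparison.

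In Des+/+, Pkp2 changed by -0.83 ± 0.34, Cdh2 by -1.01 ± 0.37, Ctnna3 by -0.99 ± 0.37, Dsg2 by -0.96 ± 0.47, Dsc2 by -0.87 ± 0.40 and Dsp by -0.82 ± 0.45, with adjusted p-values of 0.170 to 0.320. Ctnna1 changed by -0.10 ± 0.18, Tjp1 by -0.06 ± 0.24 and Jup by 0.20 ± 0.17. The cardiomyocyte markers had a median of -0.79 in this comparison with 0 of 12 called. Scaled to them, the median of the 10 genes was -0.02 and that of all genes 0.77.

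Swimming in Des-/- mice left 0 of the 10 called by edgeR or DESeq2 and 0 with an unadjusted p under 0.05, beside 0.0228% of all genes called by edgeR, 2.66% called by DESeq2 and 16.7% at an unadjusted p under 0.05. The fitted changes ran from -0.56 for Cdh2 (95% CI -1.38 to 0.27) to 0.52 for Dsg2 (95% CI -0.55 to 1.59), with 5 genes of each sign. For Jup, Cdh2, Ctnna3, Ctnna1 and Tjp1 the 95% interval held the change fitted in Des+/+ mice, and for the other genes it did not. This leaves out the error of the Des+/+ change, so it is no test of a difference between the genotypes. For Gja1 the change was -0.45 ± 0.27, with 217, 314 and 130 CPM in non-swim and 200, 139 and 146 CPM in swim libraries.

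The difference between the genotypes in the response to swimming was tested as an interaction. None of the 10 was called (0% of all genes by edgeR), and DESeq2 called none of the 9 to which it gave an adjusted p (all but Ctnna3), beside 3.96% of the genes it tested. Dsg2 alone of the 10 had an unadjusted p under 0.05, with an interaction of 1.48 (edgeR, adjusted p = 0.306), and 16.3% of all genes were under that limit. The comparisons share groups of libraries, so their values stand side by side and were not correlated with each other.

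Set against the cardiomyocyte markers of the same library, the genes fell into different patterns. Dsp varied 11.4-fold in CPM over the 12 libraries, from 145 to 1653 CPM, but only 1.61-fold when expressed per 10000 marker reads. Its level was 135, 151 and 123 reads per 10000 marker reads in Des+/+ non-swim, 141, 137 and 140 in Des+/+ swim, 126, 170 and 195 in Des-/- non-swim and 121, 164 and 169 in Des-/- swim libraries. All 4 groups overlapped on this scale. Dsc2 and Dsg2 likewise ranged over 10.8-fold and 17.6-fold in CPM and over 1.77-fold and 1.91-fold per marker reads. The summed markers themselves varied 14.7-fold in CPM.

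Jup, Tjp1 and Ctnna1 showed the opposite order, with a range of 1.85-fold, 2.08-fold and 2.05-fold in CPM and of 9.94-fold, 9.47-fold and 7.20-fold per marker reads. Jup had 71.0, 48.5 and 66.9 reads per 10000 marker reads in Des+/+ non-swim libraries and 317, 152 and 483 in Des-/- non-swim libraries. Scaled in this way, its genotype change without swimming was 2.35 ± 0.51, that of Tjp1 2.24 ± 0.54 and that of Ctnna1 1.91 ± 0.50, all below the 2.69 of the median gene. Gja1, with 74.9, 51.9 and 62.8 against 137, 93.3 and 176, changed by 1.10 ± 0.49 (adjusted p = 0.0382). It varied 4.36-fold in CPM and 4.50-fold per marker reads.

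Pkp2, Cdh2 and Ctnna3 lay between these patterns. Pkp2 had 18.3, 20.7 and 18.1 reads per 10000 marker reads in Des+/+ non-swim and 19.7, 22.0 and 46.2 in Des-/- non-swim libraries, so that replicates 1 and 2 lay near the Des+/+ range and replicate 3 far above it. Cdh2 had 28.8, 28.0 and 24.2 against 23.4, 32.5 and 63.8, again with replicate 3 highest. On this scale none of Dsp, Pkp2, Dsg2, Dsc2, Cdh2 and Ctnna3 was called, with changes of -0.37 ± 0.47 (Dsg2) to 0.62 ± 0.48 (Pkp2). The part of the cell mixture in the changes of the 10 genes was not tested beyond these values.

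**Figure D3:**
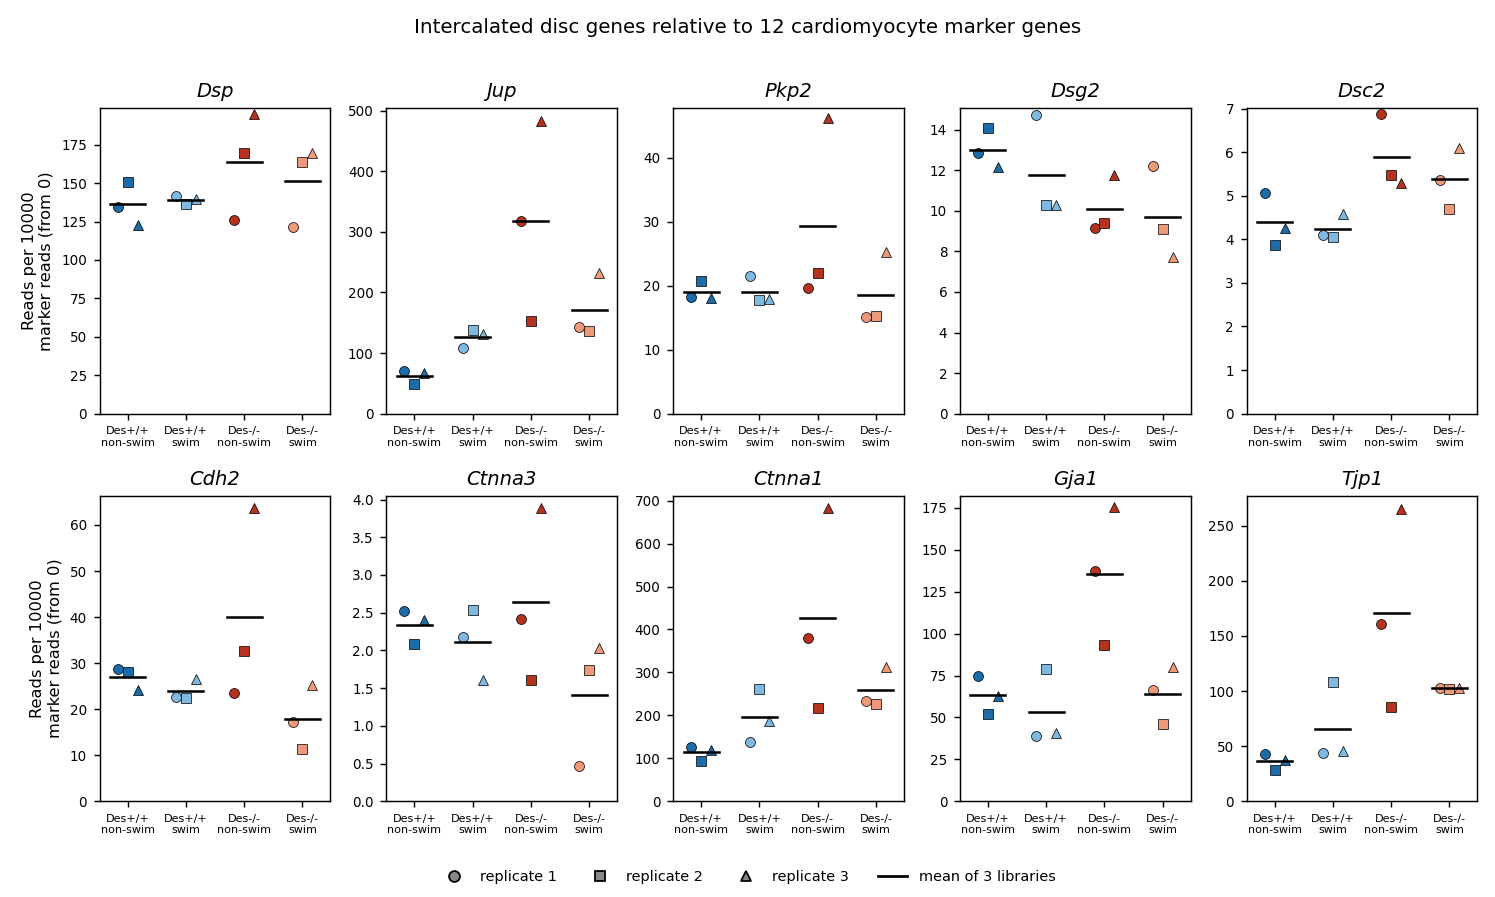
Reads of each gene per 10000 reads of the 12 cardiomyocyte markers in the same library (vertical axis, linear and starting at 0), by group, with symbols for replicates and bars for group means. Dsp stayed within 121 to 195 in all 12 libraries, while Jup ran from 48.5 to 483.

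Ratios of related genes within a library do not depend on how libraries are scaled. They can still depend on the mixture of cells, and its part in them was not tested. They were compared by an exact two-sided permutation test, with labels exchanged within the other factor (400 arrangements, smallest possible p = 0.005), and p-values were adjusted over the 10 tests of 5 ratios, of which 4 are reported. This exchange treats all 12 libraries as independent, whereas same-numbered Des-/- libraries deviated together over all genes. With the replicate numbers as the units, a genotype difference would be 3 against 3, where the smallest exact p is 0.1. Ctnna3 relative to Ctnna1 was lower in Des-/- libraries, with a difference of -1.43 on the log2 scale (exact p = 0.005, the smallest the test allows, adjusted p = 0.0375). The ratio was -5.65, -5.51 and -5.63 in Des+/+ non-swim, -5.97, -6.67 and -6.86 in Des+/+ swim, -7.27, -7.06 and -7.44 in Des-/- non-swim and -8.88, -7.00 and -7.24 in Des-/- swim libraries. Every Des-/- value was below every Des+/+ value. Scaled to the cardiomyocyte markers, the genotype change without swimming was 0.16 ± 0.61 for Ctnna3 (adjusted p = 0.805, edgeR) and 1.91 ± 0.50 for Ctnna1. The 2 genes thus stood differently to the markers, and a change within cardiomyocytes cannot be told apart from one of the mixture.

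Dsc2 relative to Dsg2 was higher in Des-/- libraries by 0.71 (exact p = 0.01, adjusted p = 0.0375). Dsc2 made 21.6 to 28.2% of the reads of the pair in Des+/+ non-swim and 31.0 to 42.9% in Des-/- non-swim libraries, and 21.7 to 30.8% against 30.5 to 44.2% after swimming, where the groups overlapped slightly. Jup relative to Ctnnb1, the β-catenin gene, differed by -0.24 (exact p = 0.105, adjusted p = 0.15), and Ctnnb1 was at 1212 ± 47.9 CPM in Des+/+ and 1186 ± 190 CPM in Des-/- non-swim libraries.

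Gja1 relative to Gjc1, the connexin 45 gene, was lower after swimming, with a difference of -1.13 over both genotypes (exact p = 0.015, adjusted p = 0.0375). The ratio was 3.03, 3.53 and 2.72 in Des+/+ non-swim and 1.38, 1.89 and 0.98 in Des+/+ swim libraries, which did not overlap, and 1.70, 2.21 and 1.44 in Des-/- non-swim and 1.84, 0.77 and 1.01 in Des-/- swim libraries, which did. Its difference by genotype was -0.76 (exact p = 0.04, adjusted p = 0.08). Gjc1 had 63.1 ± 12.5 CPM in Des+/+ non-swim and 89.7 ± 14.2 CPM in Des+/+ swim libraries (0.51 ± 0.20, adjusted p = 0.199). With 1 library left out, the adjusted p of these 3 differences rose to between 0.05 and 0.075 in 22 of the 36 repeats. The differences kept their sign, but the calls were not stable. With 1 library fewer the test has fewer arrangements, so dependence on a library cannot be told apart from coarser steps in p.

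**Figure D4:**
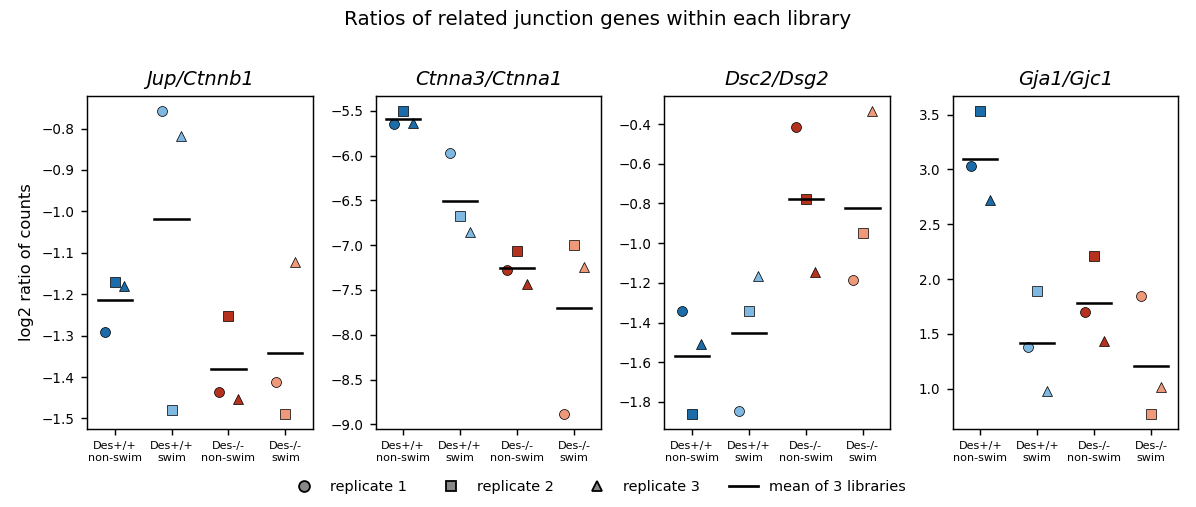
Log2 ratio of the counts of 4 pairs of related junction genes in each library (vertical axis), by group, with symbols for replicates and bars for group means. Ctnna3 relative to Ctnna1 lay between -6.86 and -5.51 in the Des+/+ libraries and at -7.00 or lower in all 6 Des-/- libraries.

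Further genes of the disc were read from 5 lists of 38 genes, of which 30 passed the filter. Without swimming, 13 were called lower and 2 higher, beside 18.0% of all genes called lower and 14.0% called higher, and the median change of the 30 was -0.40. Of the 11 genes for linkers and channels of the disc 10 were lower, as were the desmosome gene Perp (-1.85), the connexin gene Gja3 (-2.85) and Cxadr (-1.68), which encodes the coxsackie and adenovirus receptor. Of the remaining adherens junction genes 0 of 7 were called, of the gap junction genes 1 of 4 and of the tight junction genes 1 of 4, beside 32.0% of all genes called in either direction.

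The largest decreases among them were those of Gja3, from 25.8 ± 6.57 to 3.62 ± 2.33 CPM, of Xirp1, which encodes an actin-binding Xin repeat protein of the disc, from 231 ± 65.7 to 45.7 ± 35.1 CPM (-2.34), and of Nrap, from 973 ± 412 to 198 ± 169 CPM (-2.29). The 2 genes called higher were Evpl, which encodes the epithelial linker envoplakin, from 0.996 ± 0.180 to 3.93 ± 2.59 CPM (1.96, adjusted p = 0.0304), and Tmem43, a gene of arrhythmogenic cardiomyopathy, from 61.4 ± 1.50 to 90.7 ± 26.2 CPM (0.56, adjusted p = 0.0397). After swimming 4 of the 30 were lower (Perp, Vcl, Sorbs2 and Tmem65) and 0 higher, beside 5.57% of all genes called lower. Swimming in either genotype and the interaction left 0 of the 30 called by edgeR, with 9, 2 and 5 at an unadjusted p under 0.05, beside the 20.5, 16.7 and 16.3% of all genes given above.

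The epithelial forms of the desmosomal cadherins and plakophilins were near the limit of detection. Dsg1a, Dsg1b, Dsg3, Dsc1, Dsc3 and Pkp1 had group means of at most 0.456 CPM, and Pkp3 of at most 1.17 CPM. At the shallowest library, 3 counts correspond to 0.656 CPM. Of the same list, Pkp4 had 337 ± 45.8 and Ppl 16.4 ± 2.28 CPM in Des+/+ non-swim libraries, and edgeR called neither in any comparison.

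The genes outside the set with the most similar profiles were found by the root mean square difference of log2 levels, each centred on its own mean over the 12 libraries. For Dsp they were Kcnd3 (0.16), Pde4dip (0.16) and Actn2 (0.18), beside a median of 1.03 over all genes, and the mean profile of the cardiomyocyte markers lay at 0.19. The nearest gene of Dsg2 was Txlnb (0.17), that of Dsc2 Prob1 (0.15), that of Pkp2 Ppp2r3a (0.17) and that of Cdh2 Rap1gap2 (0.12). Jup was nearest to Socs7 (0.10), Tjp1 to Nbr1 (0.11) and Ctnna1 to Polr2m (0.09), and their distances to the marker mean were 0.83, 0.86 and 0.70. The nearest genes lay farther away for Gja1, with Map3k20 (0.28), Klhl7 (0.28) and Mmab (0.29), and for Ctnna3, with Pkd2l2 at 0.42. Within the set the closest pairs were Jup and Ctnna1 (0.22) and Ctnna1 and Tjp1 (0.26), then Cdh2 and Pkp2 (0.29) and Dsp and Pkp2 (0.29). The median distance over all genes was only 0.44 for Jup, 0.49 for Ctnna1 and 0.47 for Tjp1, so small distances were common for these genes. Among the 500 nearest genes of Jup, Ctnna1, Tjp1 and Gja1 there were 0 other members, and among those of the remaining genes of the set 2 to 4. Levels of the 12 libraries share depth, scaling and cell mixture, so these distances are descriptions.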

How the data were processed

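The deposited files hold read counts for each gene. The authors obtained these counts from 100-base single-end reads by alignment to GRCm38 with HISAT2 2.2.1, SAMtools 1.13 and HTSeq-count in reverse-strand mode, without normalisation. Library kits are given differently, as unstranded in the labels and as directional in the methods. The members and gene lists were chosen with earlier results of these data known. Groups came from the sample labels.

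In R 4.3.3, counts were filtered with edgeR 4.0.16 (filterByExpr), scaled by TMM and fitted with 1 mean per group over 12 libraries (8 residual degrees of freedom). The 5 contrasts were tested by quasi-likelihood with Benjamini-Hochberg adjustment. The common dispersion corresponded to a coefficient of variation of 0.271. The same test was also run on simulated counts of independent libraries, for genotype without swimming only. That run cannot check p-values where libraries deviate together. RPKM used the joined exon length of GENCODE M21, which matched 21488 of the genes. Marker-scaled values divided by the summed counts of 12 cardiomyocyte genes. Genes outside the set were named as the 3 called list genes with the largest change in each direction without swimming, the partners in ratios, the nearest profile (the nearest 3 for Dsp and Gja1) and list markers. Perp, Cxadr, Vcl, Sorbs2, Tmem65, Pkp4, Ppl and the epithelial forms were named after their values were seen. Ratios used 0.5 added to each count. A ratio that entered the adjustment is not reported here.

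DESeq2 1.42.0, limma-voom (limma 3.58.1), other scalings and filters, covariates, a replicate block and fits without each library were alternatives. Same-numbered Des-/- libraries deviated together, with correlations over genes of 0.365, 0.316 and 0.602 between non-swim and swim. The other comparisons had correlations of -0.410 to 0.134. The main fit had no term for the replicate number, so its errors and p-values treat these libraries as independent. Only the replicate block took the numbers into account. Counting intervals and floors cover counting error only.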

Additional observations from a re-analysis of the deposited data

How the results depend on the processing

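The count of genes called lower without swimming stayed at 7 or 8 of 10 under other scalings of the whole library, both filters, DESeq2, limma-voom, the 6 libraries compared, the replicate block, the study's filter and without any 1 library, and was 7 without replicate 3 of both Des-/- groups, an alternative chosen after seeing the data. It was 0 with the cell mix covariate, and 4, all higher, when scaled by the cardiomyocyte markers. After swimming the count of 2 went to 5 with DESeq2, 4 with the study's filter (unadjusted p of at most 0.05), 1 with the replicate block, 1 without replicate 3 of both Des-/- groups, and 0 with marker scaling and with the covariate, and ranged from 0 to 3 with 1 library left out. In the fit of the 6 libraries compared it stayed 2, but for Pkp2 and Cdh2, with Ctnna3 at an adjusted p of 0.0689. For swimming in Des+/+ the count of 0 went to 1 (Gja1) with DESeq2, the 6 libraries alone, the covariate and without replicate 3 of both Des-/- groups, to 4 with the study's filter, and ranged from 0 to 1 with 1 library left out. The counts for swimming in Des-/- and for the interaction were 0 in every alternative run. The replicate block changed no other call among the 10 genes. The study's filter was applied here to edgeR p-values, whereas the study used DESeq2, and the share of all genes passing it is not given. Nor is that share given for limma-voom, the fits of 6 libraries, the replicate block or the fits without libraries. The member counts under these settings therefore cannot be judged against all genes. At an unadjusted p under 0.05 alone (edgeR) were 5747 of all 13158 genes for genotype without swimming and 4009 after swimming. For swimming in Des+/+ the number was 2697.

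Signs of log2 changes turned mainly under marker scaling and the covariate. Scaled by the markers, the genotype change without swimming was 0.27 for Dsp, 2.35 for Jup, 0.62 for Pkp2, 0.42 for Dsc2, 0.56 for Cdh2, 0.16 for Ctnna3, 1.91 for Ctnna1, 1.10 for Gja1 and 2.24 for Tjp1. After swimming it was 0.12 for Dsp, 0.44 for Jup, 0.34 for Dsc2, 0.40 for Ctnna1, 0.28 for Gja1 and 0.64 for Tjp1. On the same scale swimming in Des+/+ gave 0.032 for Dsp, 0.0034 for Pkp2, 0.78 for Ctnna1 and 0.86 for Tjp1, and swimming in Des-/- gave -0.11 for Dsp, -0.059 for Dsg2, -0.13 for Dsc2, -0.72 for Ctnna1 and -0.74 for Tjp1. The interaction became -0.14 for Dsp, -0.66 for Pkp2, -0.076 for Dsc2, -0.98 for Cdh2, -0.75 for Ctnna3, -1.50 for Ctnna1, -0.82 for Gja1 and -1.59 for Tjp1.

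With the covariate, the genotype change was 0.036 for Dsp, 0.28 for Jup, 0.27 for Dsc2 and 0.53 for Tjp1 without swimming, and 0.17 for Dsp, 0.43 for Dsc2 and 0.23 for Tjp1 after it. Swimming gave 0.055 for Tjp1 in Des+/+, and -0.36 for Dsp, -0.43 for Dsg2, -0.40 for Dsc2, -0.16 for Ctnna1 and -0.25 for Tjp1 in Des-/-. The interaction was -0.069 for Cdh2, -0.15 for Ctnna1 and -0.30 for Tjp1. Marker scaling and the covariate take the marker levels out of every gene by construction.

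The remaining turns were of small values. Library totals alone gave Jup 0.076 without swimming and Tjp1 0.022 (genotype after swimming) and 0.038 (swimming in Des+/+). Without replicate 3 of both Des-/- groups, Jup was 0.028 without swimming and Tjp1 0.089 (genotype after swimming) and 0.021 (swimming in Des+/+). The 6 libraries gave Tjp1 0.010 (swimming in Des+/+), and limma-voom and the replicate block gave Pkp2 0.10 and 0.047 (swimming in Des-/-). The cause was not tested. With 1 library left out, Tjp1 ranged from -0.27 to 0.14 (genotype after swimming) and from -0.32 to 0.082 (swimming in Des+/+), and for swimming in Des-/- Pkp2 ranged from -0.24 to 0.49, Dsc2 from -0.075 to 0.91, Cdh2 from -0.84 to 0.059, Ctnna3 from -0.66 to 0.14, Ctnna1 from -0.020 to 0.24 and Tjp1 from -0.0090 to 0.32.

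Ratios with 1 library left out ranged, for genotype, from -1.61 to -1.14 (Ctnna3/Ctnna1), 0.59 to 0.80 (Dsc2/Dsg2), -0.92 to -0.64 (Gja1/Gjc1) and -0.36 to -0.18 (Jup/Ctnnb1). For swimming they ranged from -1.28 to -1.02 (Gja1/Gjc1), -0.85 to -0.38 (Ctnna3/Ctnna1) and -0.085 to 0.14 (Dsc2/Dsg2). In these 12 repeats, each with fewer arrangements, the calls of Ctnna3/Ctnna1 and Dsc2/Dsg2 by genotype and of Gja1/Gjc1 by swimming were lost in 7, 7 and 8. Their adjusted p ran from 0.0333 to 0.05, from 0.025 to 0.075 and from 0.025 to 0.075, in that order. Adding 2 to each count changed no call. The 3 pools per group and low counts of Ctnna3 limit what can be detected, and the shallowest library held 4320819 reads.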
